A study of Mus musculus with 4 samples.

Results

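The miR-297, miR-466, miR-467 and miR-669 families are mature microRNAs of mouse that are read mostly from a single dense cluster of hairpins inside the gene Sfmbt2. Members were taken by name: every deposited entry of those 4 families, with any letter and any arm mark, was kept. This gave 47 of the 590 microRNAs listed in at least 1 of the 4 libraries, with 4 of the miR-297 family, 17 of miR-466, 11 of miR-467 and 15 of miR-669. Between 43 and 46 of them were listed in each library.

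The libraries hold small RNA of synovial fibroblasts, the connective tissue cells that line the joint capsule, grown in culture, with 2 libraries in each of 2 groups. The WT group came from wild-type mice and the TghuTNF group from littermates that carry a human TNF transgene. All 4 cultures were grown from the hind joints of mice 8 weeks of age on the CBA/J * C57BL/6/J background and were taken at passage 4. The libraries within a group are biological replicates per the series' design text, and the labels do not say how many mice went into each culture. The promoter that drives the transgene is not given in the sources used here. A human TNF transgene is a standard way to model inflammatory arthritis in mice, and the comparison asks which microRNAs differ in fibroblasts from such joints.

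MicroRNAs are cut from hairpin precursors and guide the silencing complex to messenger RNAs that pair with their seed, bases 2 to 8 of the mature strand. Either arm of a hairpin can give a mature strand: 5p and 3p name the arm, a star marks the strand that was held to be the minor one, and a plain name leaves the arm unmarked. Sfmbt2 encodes a Polycomb group protein with MBT repeats and is an imprinted gene that is expressed from the paternal copy in the mouse placenta. Its intronic microRNA cluster is known from mouse and rat, grew by repeated local duplication, and is best known for its part in placental growth. Mature strands of these families are known for stretches of alternating U and G or C and A.

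GENCODE M21 annotates 81 hairpins of the 4 families in the mouse genome build GRCm38, and 71 of them lie in Sfmbt2 (chr2:10370510-10595253, plus strand). These 71 fill a stretch of 51.6 kb (chr2:10466663-10518279), all on the plus strand and all inside 1 intron of 62.5 kb, intron 10 of the transcript Sfmbt2-201. None of the 71 overlaps an annotated exon, and no hairpin of another family was annotated in the gene. By name, 36 members have hairpins only in Sfmbt2, 4 have hairpins both there and elsewhere (miR-297a, miR-466f, miR-466f-3p and miR-466f-5p), and 7 have their only hairpin on another chromosome. The name of the cluster therefore holds for most members and not for miR-466i, miR-466j, miR-466k, miR-467f, miR-467g, miR-467h and miR-669n.

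RefSeq sequences (build GRCm38.p6) were matched for those 7 members alone. They are printed to show the repeats in these 7, and the strands of the Sfmbt2 cluster itself were not matched. The seed is in capitals, each strand reads 5′ to 3′, and miR-466i was matched to the entry that carries the 3p mark. The 3 strands rich in alternating C and A come first and the 4 rich in alternating U and G follow.
miR-466i: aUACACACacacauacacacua
miR-467f: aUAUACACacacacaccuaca
miR-467g: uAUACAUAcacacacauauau
miR-466j: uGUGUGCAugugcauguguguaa
miR-466k: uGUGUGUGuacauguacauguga
miR-467h: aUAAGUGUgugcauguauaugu
miR-669n: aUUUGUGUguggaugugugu
These strands lie at chr13:17747552-17747573 (plus, miR-466i), chr11:69635419-69635439 (minus, miR-467f), chr5:34732872-34732892 (minus, miR-467g), chr10:60960802-60960824 (plus, miR-466j), chr3:85467396-85467418 (plus, miR-466k), chr9:115381898-115381919 (plus, miR-467h) and chr3:115979905-115979924 (plus, miR-669n).

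No seed was shared among the 7, although family names group them. Steps between neighbouring bases that read CA or AC, counted together, made up 71.4% of all steps in miR-466i, 65% in miR-467f and 50% in miR-467g, and none of the 3 held a UG or GU step. UG and GU steps together made up 68.4% of the steps in miR-669n, 63.6% in miR-466j, 59.1% in miR-466k and 47.6% in miR-467h. The run UGUGUGU, searched on the mature strand only, stood in 3 of the 7 and in 0.633% of the 1738 mature strands of the RefSeq table (11 strands). The run ACACACA stood in the 3 CA-rich members and in 0.288% of the table (5 strands). Sequences were also shared across family names: miR-466i and miR-467f have the 13-base run auacacacacaca in common, while miR-466i and miR-466j, of the same family name, have no common run longer than 3 bases.

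The libraries held 16680860 and 26542371 microRNA matches in WT and 27362819 and 22959408 in TghuTNF (replicates 1 and 2 in each), where a match is a read assigned to a mature microRNA with at most 2 mismatches. The 47 members took 0.208% and 0.243% of all matches in WT and 0.147% and 0.135% in TghuTNF, so both transgenic libraries lay below both wild-type libraries. Of these member matches, 62.7% to 66.0% were in miR-669c and miR-669n, whose totals nearly repeat each other, so the same reads may be counted in both. Of perfect matches the members took 0.124% and 0.145% in WT and 0.0865% and 0.0780% in TghuTNF. Levels are given as CPM, counts scaled to library size with TMM factors, of all matches or of perfect matches as stated, and 3 reads correspond to between 0.110 and 0.180 CPM of all matches. A filter on low counts left 39 members among 442 microRNAs tested on total matches and 27 members among 380 tested on perfect matches. miR-669c dominated the group, with 73.4% to 75.9% of the members' perfect matches in every library.

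**Figure D1:**
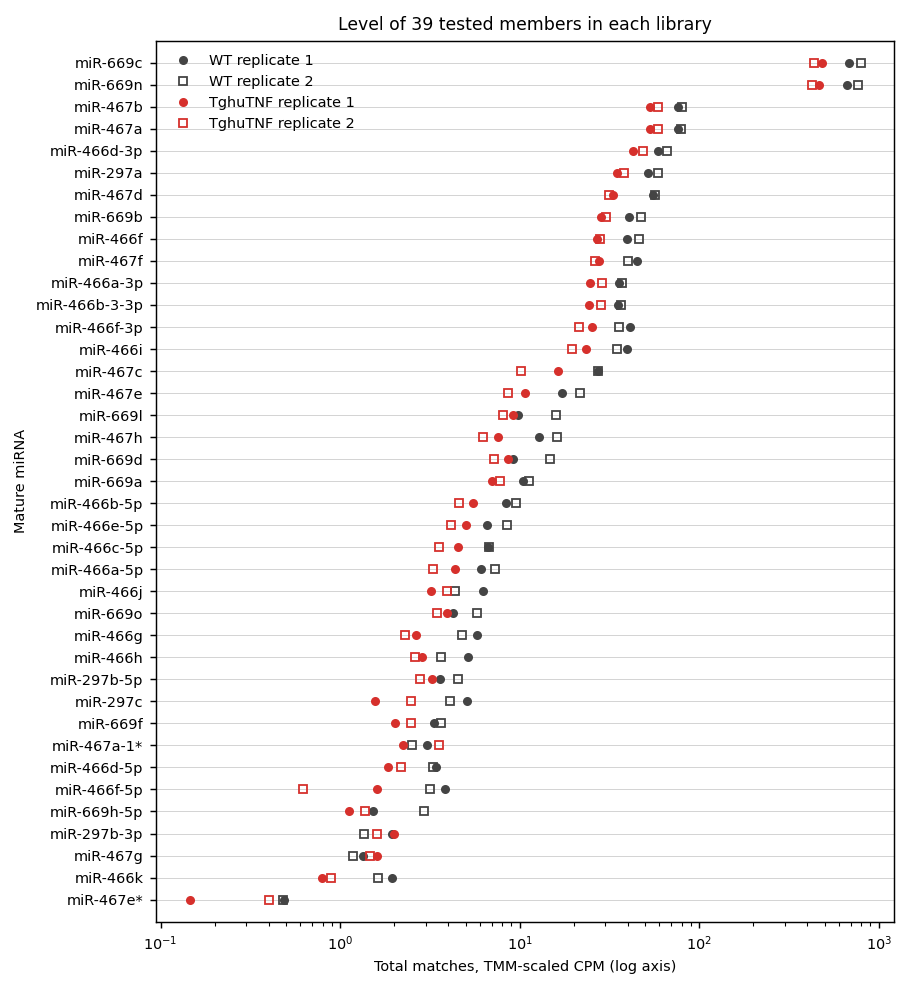
Level of the 39 tested members in each of the 4 libraries, as TMM-scaled CPM of total matches on a log axis, with WT in grey, TghuTNF in red, replicate 1 filled and replicate 2 open. miR-669c and miR-669n stand near or above 427 CPM in every library, far to the right of the other members, and for 36 of the 39 both red points lie left of both grey points.

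Because the members resemble each other, the mismatches behind each count were examined first. Over all microRNAs, 66% to 70.5% of matches were perfect, but over the members this share was 38.1% to 41.9%. The share varied widely among them. Of the 55975 matches of miR-669c over the 4 libraries 94.0% were perfect, and miR-466h (92.5%) and miR-669f (80.1%) were among others with a high share. miR-669n, whose hairpin is on chromosome 3, showed the reverse: 99.9% of its 54511 matches carried 2 mismatches and 0.125% were perfect. In each library the totals of miR-669c and miR-669n differed by at most 3.14%: they were 11213 and 11010 in WT replicate 1, 21657 and 20977 in WT replicate 2, 13259 and 12914 in TghuTNF replicate 1, and 9846 and 9610 in TghuTNF replicate 2.

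Other pairs of members repeated each other in the same manner. Totals stayed within 5% of each other in every library (among members with at least 30 matches in each) for miR-467a with miR-467b, whose largest difference was 0.90%, and for miR-466a-3p with miR-466b-3-3p, at 1.55%. The matches of miR-467h with 1 mismatch, 158, 336, 149 and 112 in WT replicates 1 and 2 and TghuTNF replicates 1 and 2, followed the perfect matches of miR-467e, 156, 330, 146 and 111, within 2.01%. miR-467h itself had no perfect match in any library. Likewise the matches of miR-466i with 1 mismatch followed the perfect matches of miR-467f within 4.07%, and these are the pair that share the 13-base run printed above. Apart from the 4 members without any perfect match, no pair of members had equal perfect counts. The deposited files do not say whether a read may be counted for several microRNAs, so such pairs are given here as numbers that move together and the calls on them are not separate observations.

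Across the 47 members, 20 had at least 50% perfect matches, 13 had under 5%, and 4 had none in any library: miR-467b*, miR-467h, miR-669i and miR-669j. miR-669i had 2, 2, 5 and 4 matches in WT replicates 1 and 2 and TghuTNF replicates 1 and 2, all with 1 mismatch, and these equal the counts of miR-669h-3p, which were all perfect. miR-467b* had 3 matches in all, each with 1 mismatch, and miR-669j had 1 match, with 2 mismatches. The deposited totals exceed the sum of the 3 mismatch classes by 2488 to 3706 reads per library. The members held 25.0% to 36.1% of that excess, spread over 17 of the 47. It made up 84.2% of the matches of miR-466f-3p, 74.0% of those of miR-467g and 18.6% of those of miR-467f, 3 entries singled out here after their values were seen. What the excess reads are is not given in the sources used here.

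**Figure D2:**
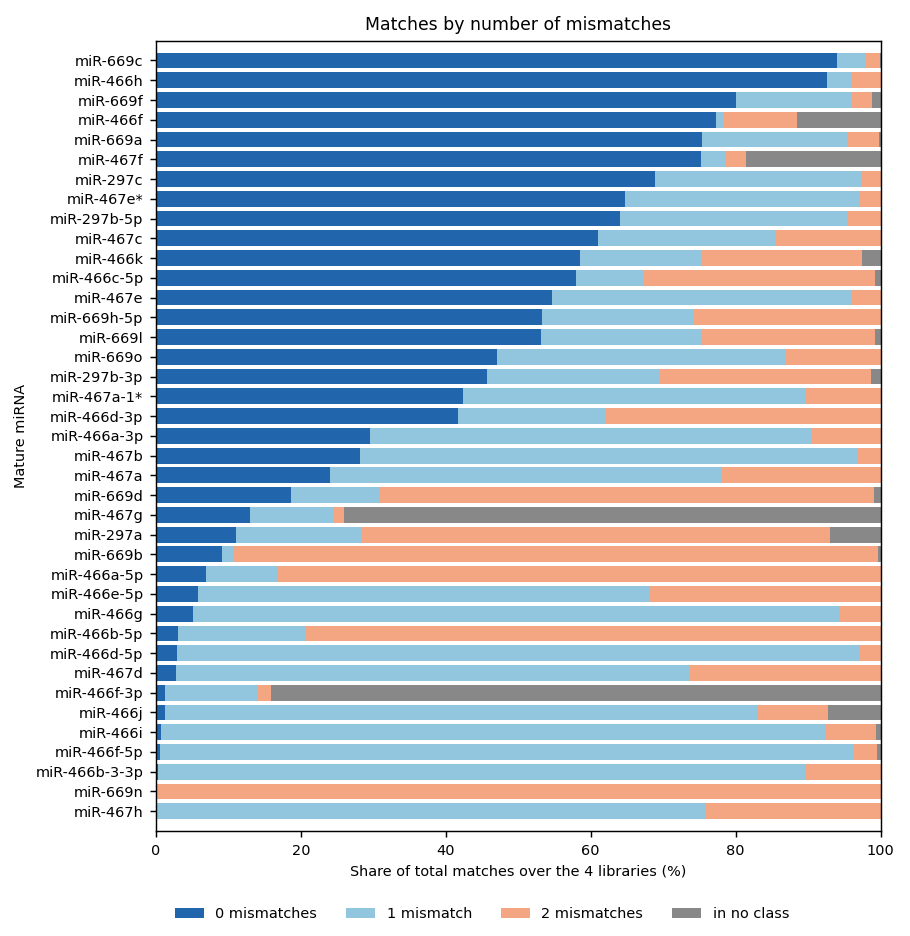
Share of each tested member's total matches, summed over the 4 libraries, that carried 0, 1 or 2 mismatches or belonged to no class, in percent. Bars run from 94.0% perfect for miR-669c at the top to miR-669n with 99.9% at 2 mismatches and miR-467h with no perfect match at the bottom.

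In the comparison of genotypes on total matches, 9 of the 39 tested members fell in TghuTNF and 0 rose, by edgeR's quasi-likelihood test with Benjamini-Hochberg adjustment at 0.05 over all 442 microRNAs. Over all microRNAs tested, 8.6% fell and 4.75% rose. The 9 include miR-669n and miR-467h, whose matches followed those of miR-669c and miR-467e, so they are not 9 separate observations. Of the 30 members that were not called, 27 had a lower estimate in TghuTNF, and 21 of the 39, all of them lower in TghuTNF, had an unadjusted p under 0.05. DESeq2, fitted to 47 members without the filter on low counts, called 14 lower and 0 higher, with 25 at an unadjusted p under 0.05. Its calls over all microRNAs were also more, at 68 against 59 with edgeR. The median log2 fold change of the 39 was -0.67, with a range from -1.62 to 0.29, against a median of 0.0056 over all microRNAs tested. Both TghuTNF libraries lay below both WT libraries in 36 of the 39 members, against 29.9% of all microRNAs tested. The exceptions were miR-467g, higher in both TghuTNF libraries, and miR-297b-3p and miR-467a-1*, whose groups overlapped.

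With perfect matches alone, 3 of 27 tested members fell (miR-669c, miR-467e and miR-466k) and 0 rose, beside 8.16% lower and 5% higher over the 380 microRNAs tested. The unadjusted p was under 0.05 for 14 of the 27, all of them lower in TghuTNF. Their median log2 fold change was -0.68, against -0.0021 over all tested, and both TghuTNF libraries lay below both WT libraries in 23 of the 27, beside 32.9% of all tested. The number of calls rested on single libraries: on total matches most or all of the 9 were lost without either WT library. More members were called without TghuTNF replicate 1, but so were more microRNAs of the whole table. Without WT replicate 1 and without WT replicate 2 the median log2 fold change of the 39 was -0.70 and -0.58. Without TghuTNF replicate 1 and without TghuTNF replicate 2 it was -0.77 and -0.65. Counting only matches with 0 or 1 mismatch left 1 call, miR-467h, and 7 of the other called members stood at an adjusted p between 0.052 and 0.063. With 2 libraries a genotype, an exact two-sided permutation test of a single member cannot go below 0.333, so the evidence for single members comes from the fit across all microRNAs.

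**Figure D3:**
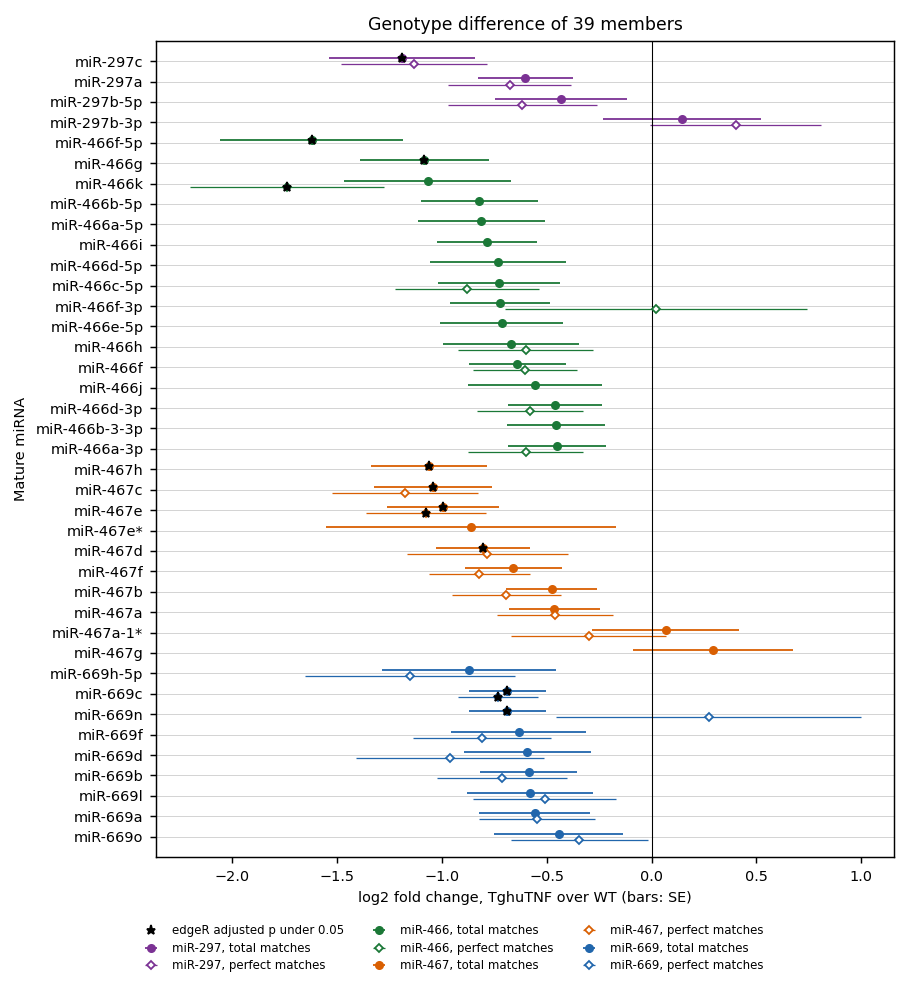
Log2 fold change of TghuTNF over WT for the 39 tested members, from total matches (filled) and, where tested, from perfect matches (open), with bars of 1 standard error and a black star for an edgeR adjusted p under 0.05. Most points lie left of 0, around medians of -0.67 and -0.68, and miR-669n is the member whose 2 measures point in opposite directions after a call.

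The miR-669 family carried the most matches, nearly all from miR-669c, whose hairpin lies 42.6 kb into the cluster (chr2:10509296-10509404). Perfect matches of miR-669c stood at 934 and 1099 CPM in WT replicates 1 and 2 and at 649 and 573 CPM in TghuTNF replicates 1 and 2. The 2 groups did not overlap. The level fell by 0.73 on the log2 scale (SE 0.19, edgeR adjusted p = 0.0349), which is 1.66-fold lower in TghuTNF. Total matches gave 682 and 796 CPM in WT and 480 and 437 CPM in TghuTNF, a log2 fold change of -0.69 (SE 0.18, edgeR adjusted p = 0.0337). The call on total matches was lost without WT replicate 2 (-0.58, edgeR adjusted p = 0.26) and without TghuTNF replicate 2 (-0.65, edgeR adjusted p = 0.056). That on perfect matches was lost without WT replicate 1 (-0.82, edgeR adjusted p = 0.13), WT replicate 2 (-0.61, 0.27) or TghuTNF replicate 2 (-0.62, 0.075) and held without TghuTNF replicate 1.

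miR-669n was called on total matches with nearly the values of miR-669c, at a log2 fold change of -0.69 (SE 0.18, edgeR adjusted p = 0.0336). Its perfect matches were 7 and 23 reads in WT and 7 and 31 reads in TghuTNF, with a log2 fold change of 0.27 (SE 0.73, edgeR adjusted p = 0.83). On that measure the groups overlapped, replicate 2 being higher than replicate 1 in both genotypes. Counting matches with 0 or 1 mismatch in place of all matches also moved the estimate to the other side, at 0.22. The call on total matches was lost without WT replicate 2 (edgeR adjusted p = 0.25) and without TghuTNF replicate 2 (0.056).

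Of the other miR-669 strands, 7 were tested on either measure and none was called, with log2 fold changes of total matches between -0.87 and -0.44. miR-669h-5p, the only strand of the family marked 5p, had 1.48 and 2.30 CPM of perfect matches in WT and 0.513 and 1.25 CPM in TghuTNF, without overlap and without a call (log2 fold change -1.15, SE 0.50, edgeR adjusted p = 0.17). Its partner miR-669h-3p was under the filter. Together the 15 miR-669 strands held 971 and 1146 CPM of perfect matches in WT and 677 and 602 CPM in TghuTNF, or 1059 ± 124 against 639 ± 52.6 (SD, n = 2 each), a log2 ratio of -0.73. Without miR-669c the family sum went from 42.0 ± 6.72 to 28.0 ± 1.04 CPM, a log2 ratio of -0.58, so the lower sum did not rest on miR-669c alone.

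The miR-467 family held the most calls, with 4 of 10 tested strands lower on total matches (miR-467c, miR-467d, miR-467e and miR-467h) and none higher. Over all microRNAs tested on total matches, 8.6% were lower and 4.75% higher. miR-467e, whose hairpin starts 39.1 kb into the cluster (chr2:10505721-10505807), was the member of the family called on both measures. Perfect matches of miR-467e were 13.5 and 17.7 CPM in WT and 7.50 and 7.33 CPM in TghuTNF, and the groups were well apart. The log2 fold change was -1.08 (SE 0.29, edgeR adjusted p = 0.0368), and on total matches it was -0.99 (SE 0.27, edgeR adjusted p = 0.0337). Both calls were lost without WT replicate 1 (edgeR adjusted p = 0.088 on perfect and 0.061 on total matches) and without WT replicate 2 (0.26 and 0.28), and that on total matches also with 0 or 1 mismatch counted (0.052).

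miR-467h, whose hairpin is on chromosome 9, showed 12.8 and 16.1 CPM of total matches in WT and 7.61 and 6.22 CPM in TghuTNF, a log2 fold change of -1.06 (SE 0.28, edgeR adjusted p = 0.0305). As it had no perfect match and its matches with 1 mismatch followed the perfect matches of miR-467e, this is not a call apart from that of miR-467e. miR-467c (chr2:10473931-10474027), with 61.1% perfect matches, stood at 24.7 and 24.9 CPM of perfect matches in WT and at 14.6 and 7.26 CPM in TghuTNF. TghuTNF replicate 2 was the lowest of the 4, with TghuTNF replicate 1 between it and the WT pair. On total matches miR-467c was called at -1.04 (SE 0.28, edgeR adjusted p = 0.0337) and on perfect matches it missed the threshold at -1.18 (SE 0.35, edgeR adjusted p = 0.056).

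miR-467d (chr2:10507630-10507714) had 55.1 and 56.8 CPM of total matches in WT and 32.9 and 31.3 CPM in TghuTNF, with close replicates in both groups. Its log2 fold change was -0.80 (SE 0.22, edgeR adjusted p = 0.0377), but only 2.78% of its matches were perfect. On perfect matches, 2.43 and 2.14 CPM in WT and 1.08 and 1.59 CPM in TghuTNF, the estimate was -0.78 and was not called (SE 0.38, edgeR adjusted p = 0.22). The calls of miR-467c, miR-467d and miR-467h on total matches were each lost without WT replicate 1 or without WT replicate 2, at edgeR adjusted p between 0.058 and 0.26.

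The most abundant miR-467 strands were not called. miR-467f, from chromosome 11 and the first of the family by perfect matches, stood at 49.7 and 46.8 CPM in WT and 29.0 and 25.6 CPM in TghuTNF, with a log2 fold change of -0.82 that missed the threshold (SE 0.24, edgeR adjusted p = 0.055). miR-467b, first by total matches, went from 76.1 and 79.9 CPM in WT to 53.5 and 58.6 CPM in TghuTNF, at -0.48 and not called (SE 0.22, edgeR adjusted p = 0.17). The star strand miR-467a-1* showed no separation on total matches, with 3.04 and 2.50 CPM in WT and 2.25 and 3.55 CPM in TghuTNF. miR-467g, of chromosome 5, had 1.34 and 1.18 CPM in WT and 1.59 and 1.47 CPM in TghuTNF, at 0.29 (SE 0.38, edgeR adjusted p = 0.65), and most of its matches were in no mismatch class. Summed over the 11 strands, perfect matches went from 155 ± 0.963 to 90.0 ± 1.47 CPM (SD, n = 2 each), a log2 ratio of -0.78, without overlap of the groups.

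In the miR-466 family, which has the most members here, 2 of 16 tested strands fell on total matches (miR-466f-5p and miR-466g), 1 of 7 fell on perfect matches (miR-466k) and none rose. Over all microRNAs tested, 8.6% fell on total and 8.16% on perfect matches, so these counts are near those shares. All 16 had both TghuTNF libraries below both WT libraries on total matches, against 29.9% of all microRNAs tested. Their log2 fold changes ran from -1.62 to -0.45. miR-466f-5p showed the widest difference of any member on total matches: 63 and 86 matches in WT and 44 and 14 in TghuTNF, or 3.83 and 3.16 CPM against 1.59 and 0.622 CPM. The log2 fold change was -1.62 (SE 0.44, edgeR adjusted p = 0.0337), with TghuTNF replicate 2 far below TghuTNF replicate 1, and it was -2.55 without TghuTNF replicate 1 and -1.15 without TghuTNF replicate 2. A single one of these matches was perfect and 95.7% carried 1 mismatch.

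miR-466g (chr2:10514595-10514674) stood at 5.78 and 4.78 CPM of total matches in WT and 2.64 and 2.31 CPM in TghuTNF, a log2 fold change of -1.08 (SE 0.31, edgeR adjusted p = 0.0418), with 5.14% perfect matches. The calls of miR-466f-5p and miR-466g were lost without WT replicate 1 or without WT replicate 2 (edgeR adjusted p between 0.061 and 0.37). miR-466k, the UG-rich strand of chromosome 3 printed above, was called on perfect matches from few reads: 25 and 26 in WT and 11 and 7 in TghuTNF, or 2.17 and 1.39 CPM against 0.565 and 0.462 CPM. Its log2 fold change was -1.74 (SE 0.46, edgeR adjusted p = 0.0368), but on total matches it was -1.07 and not called (SE 0.40, edgeR adjusted p = 0.107). The call on perfect matches ended without each library in turn (edgeR adjusted p between 0.059 and 0.37) and in DESeq2 (adjusted p = 0.16).

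The more abundant miR-466 strands were lower by smaller amounts and were not called. miR-466d-3p, first among the 3p strands, had 34.3 and 43.2 CPM of perfect matches in WT and 25.8 and 26.0 CPM in TghuTNF, with a log2 fold change of -0.58 (SE 0.25, edgeR adjusted p = 0.17). miR-466f, first among the unmarked strands, had 41.4 and 52.9 CPM against 31.0 and 31.2 CPM, at -0.60 (SE 0.25, edgeR adjusted p = 0.155). In both the groups did not overlap, and TghuTNF was lower by about the family's median. Among the 5p strands, miR-466c-5p was first by perfect matches, at 5.21 and 6.32 CPM in WT and 3.80 and 2.44 CPM in TghuTNF (-0.88, SE 0.34, edgeR adjusted p = 0.14). miR-466b-5p, first among them by total matches, had 8.34 and 9.55 CPM in WT and 5.51 and 4.62 CPM in TghuTNF (-0.82, SE 0.28, edgeR adjusted p = 0.082), of which 3.06% were perfect. The CA-rich miR-466i and the UG-rich miR-466j, both from outside Sfmbt2, had log2 fold changes of total matches of -0.79 (SE 0.24, edgeR adjusted p = 0.055) and -0.56 (SE 0.32, edgeR adjusted p = 0.28). All 4 of these last strands were again lower in both TghuTNF libraries. Summed perfect matches of the 17 strands were 110 and 128 CPM in WT and 77.7 and 77.5 CPM in TghuTNF, a log2 ratio of -0.62.

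The miR-297 family is the smallest. miR-297c (chr2:10509016-10509113, next to miR-669c) fell on total matches, from 5.11 and 4.11 CPM in WT to 1.56 and 2.49 CPM in TghuTNF, a log2 fold change of -1.19 (SE 0.35, edgeR adjusted p = 0.0473). On perfect matches, 68.8% of its reads, it missed the threshold at -1.13 (SE 0.35, edgeR adjusted p = 0.066). Without WT replicate 1 or WT replicate 2 the call on total matches was lost, at edgeR adjusted p = 0.33 and 0.15. miR-297a, the most abundant of the family, had 8.25 and 9.85 CPM of perfect matches in WT and 5.34 and 6.01 CPM in TghuTNF, not called at -0.68 (SE 0.29, edgeR adjusted p = 0.17).

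The estimates of the 2 arms of the miR-297b hairpin (chr2:10511667-10511775) had opposite signs, and neither was called. miR-297b-5p had 3.04 and 4.82 CPM of perfect matches in WT and 2.72 and 2.44 CPM in TghuTNF (-0.62, SE 0.36, edgeR adjusted p = 0.28). miR-297b-3p had 0.955 and 0.964 CPM in WT and 1.28 and 1.25 CPM in TghuTNF (0.40, SE 0.41, edgeR adjusted p = 0.57). These levels rest on 11 and 18 reads in WT and 25 and 19 reads in TghuTNF. On total matches the groups of miR-297b-3p overlapped, at 0.15 (SE 0.38, edgeR adjusted p = 0.83). The log2 ratio of 5p over 3p perfect matches was 1.63 and 2.29 in WT and 1.07 and 0.94 in TghuTNF, a change of -0.95 (SE 0.36) with an unadjusted limma p of 0.035 and an adjusted p of 0.46.

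Arm ratios were tested for 6 hairpin names of the miR-297, miR-466 and miR-467 families whose arms both passed the filter on total matches. miR-467b and miR-669h, each with an arm under the filter, were left out. Arms were paired by name, so miR-467a, with 10 annotated hairpins, was set against miR-467a-1*, with 1, and the arms of miR-466f have 4. None of the 6 was called, nor was any of the 114 of the whole table (0% called by limma with Benjamini-Hochberg adjustment, and 6 of 114 at an unadjusted p under 0.05). On total matches the widest change among the 6 was that of miR-466f-5p over miR-466f-3p, at -1.06 (SE 0.39, unadjusted p = 0.029, limma adjusted p = 0.73). That ratio was -3.41 and -3.50 in WT and -3.97 and -5.05 in TghuTNF, and it sets a strand of 1-mismatch reads beside one whose reads are mostly in no class. The other 5 hairpins changed by between -0.55 and -0.04 on the log2 scale. The difference between arms in how far they fell was not tested over the families. Of the 8 tested strands marked 5p, 1 fell (median -0.77), of 5 marked 3p none fell (median -0.46), of 24 unmarked strands 8 fell (median -0.65), and of 2 star strands none fell (median -0.40). These counts stand beside 8.6% lower over all microRNAs tested on total matches.

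Sums of perfect matches by family and arm gave the same order in the 4 families and not in every arm. The TghuTNF libraries lay below the WT libraries in the miR-297 5p and unmarked sums, the miR-466 5p, 3p and unmarked sums, the miR-467 unmarked sum and the miR-669 5p and unmarked sums. They lay above in the miR-297 3p sum, which is miR-297b-3p alone, and in the miR-669 3p sum, which is miR-669h-3p alone with 2 and 2 reads in WT and 5 and 4 in TghuTNF. The miR-467 star sum overlapped, at 2.52 and 2.09 CPM in WT and 1.59 and 2.18 CPM in TghuTNF. Over all 47 members the sum was 1253 and 1448 CPM in WT and 856 and 781 CPM in TghuTNF, a log2 ratio of -0.72, and without miR-669c it was 320 and 349 CPM against 207 and 207 CPM, a log2 ratio of -0.69. These sums are descriptions, and a difference between families or arms was not tested.

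**Figure D4:**
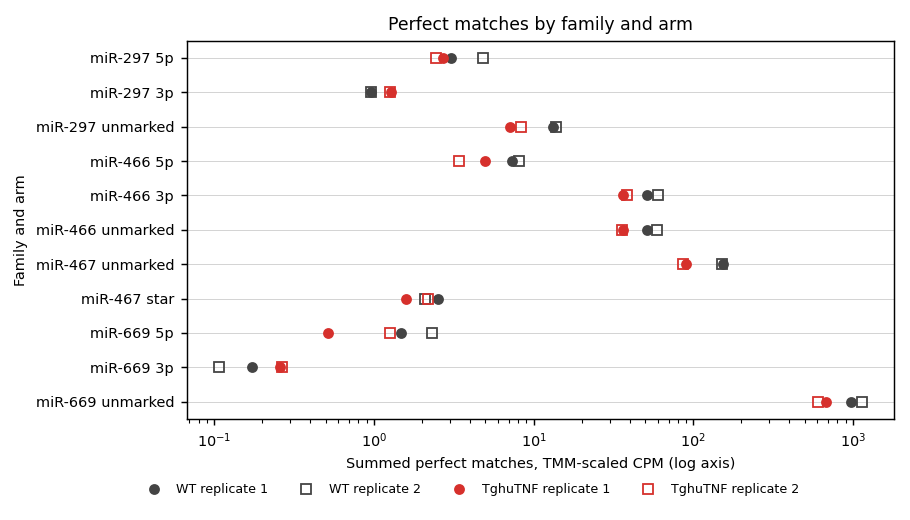
Summed perfect matches of each family and arm in each library, as TMM-scaled CPM on a log axis, with WT in grey, TghuTNF in red, replicate 1 filled and replicate 2 open. Red points lie left of grey points in 8 of the 11 sums, right of them in the miR-297 3p and miR-669 3p sums, and among them in the miR-467 star sum.

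Position within the intron was set beside the fold changes of the 23 tested members that have a single hairpin, in the cluster. In the first 17 kb, with 27 hairpins, 7 such members had a median log2 fold change of -0.59 and ran from -1.04 (miR-467c) to 0.07 (miR-467a-1*). The middle 17 kb hold 20 hairpins and none of these members. In the last stretch, from 34 to 52 kb with 24 hairpins, 16 members had a median of -0.71 and ran from -1.19 (miR-297c) to 0.15 (miR-297b-3p). Both ends of the cluster thus held called and uncalled members. Total matches do not place reads at 1 hairpin with certainty. Totals of miR-467b, for example, stayed within 0.90% of those of miR-467a, which has 10 hairpins, some of them in the middle stretch. Perfect matches made up 0.31% for miR-466b-3-3p and 2.78% for miR-467d.

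On total matches the medians were near each other for members inside and outside Sfmbt2, but the counts behind them are not all separate. Of 28 tested members with hairpins only in Sfmbt2, 6 fell and the median was -0.65. Of 4 with hairpins in both places 1 fell (median -0.68), and of 7 from elsewhere 2 fell (median -0.69). Over all microRNAs tested, 8.6% fell. Those 2 were miR-467h and miR-669n, which had no or almost no perfect matches and followed miR-467e and miR-669c of Sfmbt2. The median of the 7 is the value of miR-669n itself. On perfect matches 2 of 21 tested members of Sfmbt2 alone fell (median -0.69). With hairpins in both places 0 of 3 fell (median -0.60), and from elsewhere 1 of 3 fell (median -0.82), beside 8.16% over all tested. The difference between these groups was not tested.

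**Figure D5:**
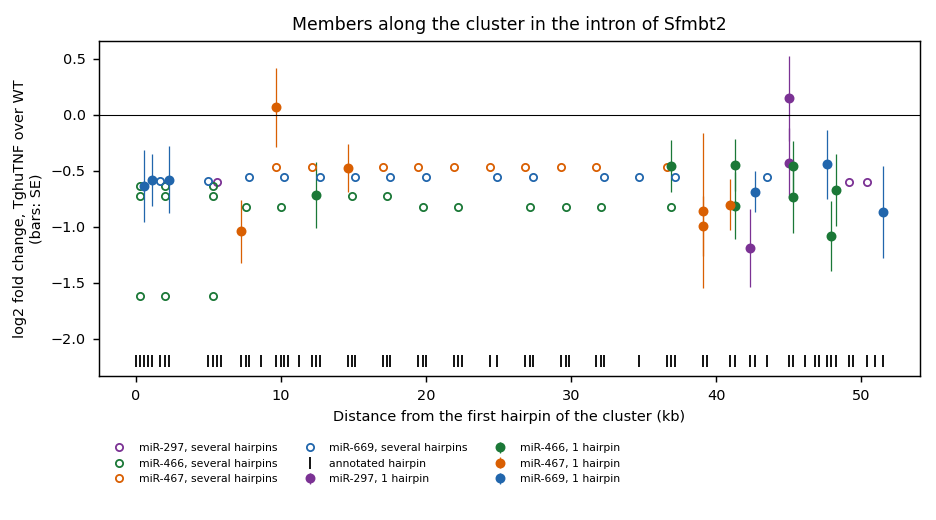
Log2 fold change of total matches (TghuTNF over WT) against distance from the first hairpin of the Sfmbt2 cluster in kb, with filled points and bars of 1 standard error for members with 1 hairpin, open points at every copy of members with several, and ticks for the 71 annotated hairpins. Filled points occur at both ends of the cluster, with medians of -0.59 and -0.71, and none lies in the middle stretch.

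The 8 members under the filter had at most 7 matches in any library and at most 13 over all libraries, and their values support no comparison. miR-669e had 4 and 4 matches in WT and 0 and 2 in TghuTNF, and miR-669m had 1 and 7 against 1 and 4. The counts of miR-669h-3p and miR-669i, 2 and 2 against 5 and 4, were the only ones among the 8 with more matches in both TghuTNF libraries than in either WT library. miR-466l, miR-467b*, miR-669g and miR-669j had at most 4 matches over the 4 libraries.

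Non-members were used as points of reference. Among the deposited names matched to RefSeq by the same name, 2 that are no members hold the run UGUGUGU, and neither was called. miR-574-5p stood at 296 and 245 CPM of total matches in WT and 256 and 145 CPM in TghuTNF (-0.43, SE 0.27, edgeR adjusted p = 0.30), and miR-1187 had a log2 fold change of 0.32 (SE 0.37). MicroRNAs of other imprinted loci moved differently among themselves: of 15 tested, 3 fell (miR-335-5p and miR-335-3p of the Mest locus and miR-483 of the Igf2 locus), 0 rose, and the median log2 fold change was 0.44.

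Marker microRNAs of other cell types differed between the libraries and are given beside the lower levels of the members. The summed level of 8 mesenchymal microRNAs, among them miR-143, miR-21 and miR-199a, was 293916 to 317616 CPM with overlapping groups, and all 8 were listed in every library. That sum is carried by miR-143 and miR-21: of the 8, miR-214 fell (-0.93, edgeR adjusted p = 0.037), miR-140 rose (0.91, edgeR adjusted p = 0.024) and 6 were not called. Muscle microRNAs (miR-1, miR-133a, miR-133b and miR-206) summed to 2426 and 3008 CPM in WT and 2054 and 1783 CPM in TghuTNF, with none of 4 called. Endothelial miR-126 strands summed to 127 and 108 CPM against 68.8 and 66.7 CPM, with 1 of 2 lower. Epithelial microRNAs summed to 67.7 and 70.9 CPM against 36.8 and 30.7 CPM, a sum carried by miR-203, which fell (-1.43, edgeR adjusted p = 0.0025). The other 3 tested epithelial markers (miR-200b, miR-200c and miR-141) had estimates between 0.30 and 0.46, without a call. The 5 microRNAs of macrophages and other blood cells summed to 16.1 and 6.39 CPM against 28.8 and 21.6 CPM, with 1 of 3 tested higher (miR-223). None of these markers was at 0 in all libraries. The part of such cells in the members' levels was not tested, and in cultures measured as a whole fewer cells of a type and less RNA per cell cannot be told apart.

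TghuTNF replicate 2 differed from the other libraries in its mismatches: 66% of its matches were perfect, against 69.6% to 70.5% in the others, and 11.7% carried 2 mismatches, against 8.21% to 8.73%. Among the members the share of perfect matches was also lowest there, at 38.1%. Without that library the median log2 fold change of the 39 members on total matches was -0.65. The calls of miR-669c and miR-669n on total matches were lost (edgeR adjusted p = 0.056 for both), and of the 3 calls on perfect matches only that of miR-467e remained.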

How the data were processed

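Each of the 4 libraries came as a deposited table with raw read counts per mature microRNA, made by the authors with mimap 3d. Per the file headers, 707 mouse mature microRNAs were searched at up to 2 mismatches, with a read length of 37 and a hash length of 9, and each row gives the total matches and the count with 0 (perfect), 1 and 2 mismatches. The sources used here give no trimming step, microRNA release, molecular identifiers or rule for reads that match several microRNAs.

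Total and perfect counts were fitted separately over all microRNAs (not members alone) with edgeR 4.0.16 in R 4.3.3: filterByExpr, TMM factors and the quasi-likelihood test of genotype, Benjamini-Hochberg adjusted, with 0.05 as threshold. The standard error is the size of the log2 fold change over the root of F. Arm ratios, log2 with 0.5 added to each count, were tested with limma 3.58.1. Scripts were tested on simulated data. Alternatives were DESeq2 1.42.0, library size alone, no filter, a replicate block, matches with 0 or 1 mismatch and leaving out each library. Family sums take every row: counting each distinct strand once needs sequences that were not matched for most members, and no 2 members with perfect matches had equal perfect counts. Hairpins were taken from GENCODE M21 (GRCm38) by name and strands from RefSeq (GRCm38.p6), where 7 of 47 members and 138 of 590 names matched. Named are members called in either fit, the first by perfect and by total matches in each family and arm, those without perfect matches, those of opposite sign after a call, and those with a printed seed. Others are given by counts. The members, the marker list and the reference lists were chosen with earlier results of these data known. Libraries of equal replicate number were not paired in the main fits, as no label ties them to a shared litter or day.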

Additional observations from a re-analysis of the deposited data

How the results depend on the processing

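The direction of the member differences was lower in TghuTNF under every alternative by median, but the number of calls was not stable. On total matches 9 members were called by edgeR, 14 by DESeq2, 11 without the filter and 1 with matches of 0 or 1 mismatch. Over all microRNAs these fits called 59, 68, 93 and 46. DESeq2 and the fit without the filter covered 47 members, against 39 in the main fit. Leaving out 1 library changed the number of calls among the members and over all microRNAs. The count was 0 without WT replicate 2 (10 at an unadjusted p under 0.05) and 21 without TghuTNF replicate 1, in fits where the lone library of a genotype is assumed to vary like the other group. On perfect matches 3 were called, and those calls were lost without WT replicate 1 and without WT replicate 2. With 1 library left out the median log2 fold change on perfect matches ran from -0.75 (without WT replicate 1) to -0.62 (without TghuTNF replicate 1). Deviations from the group mean in libraries of equal replicate number had r = -0.088 over 442 microRNAs on total and -0.096 over 380 on perfect matches. With 2 libraries a genotype, r for unequal numbers is the same value with the sign reversed. The check therefore cannot settle whether libraries shared a litter or day. A replicate block gave 10 called members on total and 4 on perfect matches, with 87 against 59 and 61 against 50 calls over all microRNAs. Of the members with estimates near 0, miR-297b-3p on total matches ran from -0.12 (without WT replicate 2) to 0.40 when 1 library was left out and was -0.10 without TghuTNF replicate 1. miR-467a-1* ran from -0.32 (without TghuTNF replicate 2) to 0.29 and was -0.08 without WT replicate 2. On perfect matches miR-466f-3p was -0.10 in DESeq2 and -0.22 with the replicate block, against 0.02, and ran from -1.42 (without TghuTNF replicate 1) to 0.80. miR-669n ran from -1.38 (without TghuTNF replicate 2) to 1.08 on perfect matches and was 0.22 with matches of 0 or 1 mismatch in place of total matches. In these cases the cause was not tested.

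Log2 ratios of family sums moved by more than the spread between replicates as follows. Total matches in place of perfect matches gave -0.63 for miR-467, 0.12 for miR-297 3p, -0.64 for miR-297 unmarked, -0.72 for miR-466 unmarked and -0.64 for miR-467 unmarked. With 0 or 1 mismatch the values were -0.66 for miR-467, 0.28 for miR-297 3p, -0.72 for miR-466 unmarked and -0.67 for miR-467 unmarked. Leaving out 1 library gave -0.72 to -0.50 for miR-466, -0.80 to -0.77 for miR-467, -0.90 to -0.23 for miR-297 5p, 0.39 to 0.42 for miR-297 3p, -0.94 to -0.69 for miR-297 unmarked, -1.16 to -0.63 for miR-466 5p, -0.69 to -0.46 for miR-466 3p, -0.73 to -0.50 for miR-466 unmarked, -0.81 to -0.77 for miR-467 unmarked, -1.88 to -0.59 for miR-669 5p and 0.58 to 1.28 for miR-669 3p. No sum changed sign. Arm ratios gave 0 calls among the 6 hairpins in limma under every alternative, with 0 to 2 at an unadjusted p under 0.05. Summing each distinct strand once, and its comparison with every row, were not run. Depth limits the strands under the filter and those with few perfect reads.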
